A study of Mus musculus with 12 samples.

Results

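The genes described are the 3 mouse E protein genes Tcf3, Tcf4 and Tcf12 and 3 genes of their Id inhibitors, Id1, Id2 and Id3. They were found by gene symbol in both deposited tables, where they make up 6 of 23284 rows each. Tcf7l1 and Tcf7l2 have rows of their own in these tables, so that Tcf3 here is the gene of E2A (the E12 and E47 proteins) and Tcf4 the gene of E2-2, neither of them a TCF/LEF factor of the Wnt pathway. Tcf12 is the gene of HEB. RNA was measured in invariant NKT cells, T cells that recognise lipids on CD1d, sorted as live CD45R- CD4- CD8- TCRb+ cells that bound a CD1d dimer. The tested cells, called cKO, came from mice with the E8III-Cre transgene and a floxed Rag2 gene. The cells they were set against, called YFP+, came from mice with the same E8III-Cre transgene and the Rosa26-loxP-STOP-loxP reporter allele, in which Rag2 is not stated to be floxed. All mice were C57BL/6, their ages are not given, and all 4 groups (cKO and YFP+ cells of the thymus, cKO and YFP+ cells of the liver) had 3 libraries. E8III-Cre acts from the CD4+CD8+ double-positive stage of thymocytes, and the submitters' design text calls the cKO cells of double-negative origin and the YFP+ cells of double-positive origin. Origin and mouse genotype cannot be told apart in this design. No label ties the replicates to separate animals, and the p-values may therefore reflect technical spread between libraries alone.

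Expression is given as FPKM, fragment counts divided by the length of a transcript and by all mapped fragments of a library, with 1 table for each tissue. Sums over all genes were 187828 to 212688 FPKM in the thymus libraries and 450429 to 558042 FPKM in the liver libraries. The tables were normalized separately, so no level is compared between tissues. For the 6 liver libraries, the titles and the column headers name one mouse and the description field names the other. Liver groups were taken from the titles, and all liver directions below turn round if the descriptions are the right ones. Rag2, the gene floxed in the cKO mice, was listed at 0 in all 3 liver libraries titled cKO, against 1.37, 0.985 and 1.08 FPKM in the liver libraries titled YFP+. Rag1, which is not floxed, was lower as well in the liver libraries titled cKO, at 0.188 ± 0.0391 FPKM, against 1.72 ± 0.344 FPKM in those titled YFP+ (SD, n = 3 each), so that the Rag2 values do not settle the labels. In the thymus Rag2 was near 0 in both groups and checks nothing. Transcripts of the T cell list summed to 815 to 858 FPKM in thymus cKO against 955 to 1069 FPKM in thymus YFP+ libraries, and to 2660 to 2683 FPKM in liver cKO against 2840 to 3330 FPKM in liver YFP+ libraries. PLZF (Zbtb16), the factor that defines the NKT cell programme, was at 3.76 ± 0.565 FPKM in thymus cKO and 12.3 ± 1.26 FPKM in thymus YFP+ cells (SD, n = 3 each). In the liver Zbtb16 was at 9.86 ± 0.949 FPKM in cKO and 11.4 ± 2.31 FPKM in YFP+ cells (limma adjusted p = 0.408).

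E proteins are basic helix-loop-helix transcription factors that bind E-box DNA as dimers and turn on genes of early T cell development, among them those needed to rearrange and test the antigen receptor. Id proteins have the helix-loop-helix but no basic region, so that an E protein paired with an Id protein cannot bind DNA. In thymocytes, signals from the T cell receptor induce Id3 through Egr factors, and in mice Id2 is the main Id gene of effector, NK and innate-like lymphocytes. NKT cell development in mice depends on both sides of this balance.

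Among the 6 genes, Id3 stood out in both tissues: its cKO level was 0.375 of the YFP+ level in the thymus and 0.415 of it in the liver. Id2, by far the most abundant member, was lower in cKO thymus cells, at 0.598 of the YFP+ level, and nearly level in the liver, at 0.896. The E protein genes were low throughout, and none of those tested passed the main test. Their summed FPKM was lower in cKO in both tissues, without overlap between the groups. Such a lower value without overlap was also found for 37.6% of all genes tested in the thymus and 29.6% in the liver. The promoters of the 2 Id genes that carry these results are shown first, as the 250 bases before the RefSeq gene start in GRCm38.p6, with 1 E-box, the letters CAGCTG, in capitals. The Id2 window is chr12:25096093-25096342, minus strand, and the Id3 window is chr4:136143572-136143821, plus strand.
Id2: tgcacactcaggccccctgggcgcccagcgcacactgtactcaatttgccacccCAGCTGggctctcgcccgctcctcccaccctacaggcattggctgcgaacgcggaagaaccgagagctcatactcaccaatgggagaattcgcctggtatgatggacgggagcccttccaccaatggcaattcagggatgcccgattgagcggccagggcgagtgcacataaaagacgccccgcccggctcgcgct
Id3: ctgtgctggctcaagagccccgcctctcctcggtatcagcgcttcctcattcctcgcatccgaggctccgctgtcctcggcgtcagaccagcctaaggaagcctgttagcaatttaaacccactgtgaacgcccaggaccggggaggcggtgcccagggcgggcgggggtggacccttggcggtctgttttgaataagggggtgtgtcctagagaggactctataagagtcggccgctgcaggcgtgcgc
Both strands were searched for the E-box CANNTG. It occurred once in the Id2 window, 196 bases before the start, and not in the Id3 window, while 66.2% of 32851 RefSeq promoter windows of this length hold at least 1. The form CAGCTG, which is a case of CANNTG, is in 13% of these windows. The Egr-type motif GCGNGGGCG, in 4.7% of all windows, was in neither. These matches describe letters in these windows and not binding.

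Id2 encodes the inhibitor that dominates in effector and innate lymphocytes. In the thymus Id2 had 527, 412 and 464 FPKM in the 3 cKO libraries, against 749, 753 and 843 FPKM in the YFP+ libraries. Every cKO library lay below every YFP+ library. The means were 468 ± 57.9 FPKM in cKO and 782 ± 52.8 FPKM in YFP+ cells (SD, n = 3 each). On the log2(FPKM + 1) scale Id2 fell by 0.74 (SE 0.0998, 95% interval -0.97 to -0.52), with an adjusted p of 0.00314 by limma with Benjamini-Hochberg adjustment over 9097 genes. By rank within a library, Id2 was gene 34 to 49 in thymus cKO and gene 21 to 24 in thymus YFP+ libraries.

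Id3 encodes the inhibitor that antigen receptor signals induce in thymocytes. In the thymus Id3 had 7.09, 6.31 and 6.47 FPKM in the cKO libraries, against 14.6, 18.2 and 20.1 FPKM in the YFP+ libraries. The groups did not overlap, and the cKO libraries lay close together while the YFP+ libraries spread more. Id3 averaged 6.62 ± 0.409 FPKM in cKO and 17.6 ± 2.75 FPKM in YFP+ thymus cells (SD, n = 3 each), and fell by 1.28 on the log2 scale (SE 0.117, 95% interval -1.55 to -1.01, limma adjusted p = 0.000470). Its rank within a library was 4015 to 4135 in cKO and 1732 to 2239 in YFP+ cells.

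Of the 4 members with a mean of at least 1 FPKM in the thymus, the minimum set for a test, Id2 and Id3 passed. Of all 9097 genes tested there 15.7% passed in either direction, 13.1% as lower and 2.64% as higher in cKO. The groups did not overlap for 3 of the 4 members, all lower in cKO, where 37.6% of all tested genes did the same. The median of all genes in the thymus was itself shifted by -0.16 on the log2 scale. Relative to that median, Id2 was lower by -0.58 and Id3 by -1.12. Id2 and Id3 passed in each of the 12 alternative settings, with adjusted p of 0.000381 to 0.0300 for Id2 and 0.000117 to 0.00523 for Id3.

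Id1, which in many tissues responds to BMP signals, was close to absent from the thymus. Its values were 0, 0.107 and 0.054 FPKM in cKO and 0.024, 0 and 0 FPKM in YFP+ libraries, overlapping and too low to test. Id4, the remaining Id gene of the mouse, was at 0.329 ± 0.109 FPKM in cKO and 0.271 ± 0.0787 FPKM in YFP+ thymus cells and was listed at 0 in all 6 liver libraries.

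Tcf3 and Tcf12 encode the E proteins that act together in early thymocytes. Tcf3 had 2.72, 2.32 and 2.49 FPKM in thymus cKO and 2.801, 2.65 and 3.16 FPKM in thymus YFP+ libraries. These groups overlapped, the difference was -0.14 on the log2 scale (95% interval -0.37 to 0.09), and it did not pass (limma adjusted p = 0.319). Tcf12 had 1.83, 2.13 and 2.11 FPKM in thymus cKO and 2.68, 2.92 and 2.63 FPKM in thymus YFP+ libraries. The Tcf12 groups stood apart, with cKO lower in every library, by -0.31 on the log2 scale (SE 0.0950, 95% interval -0.53 to -0.09). With a limma adjusted p of 0.0596 this missed the threshold of 0.05, and relative to the median of all genes the Tcf12 difference was -0.14. Tcf12 passed with weights for the quality of single libraries (adjusted p = 0.0315), and its adjusted p was 0.267 once libraries were scaled by median ratios.

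Tcf4, the E protein gene of plasmacytoid dendritic cells and B lineage cells, was low in all thymus libraries. It had 0.265, 0.233 and 0.426 FPKM in cKO and 0.296, 0.153 and 0.146 FPKM in YFP+ thymus libraries, overlapping and below the minimum for a test.

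**Figure D1:**
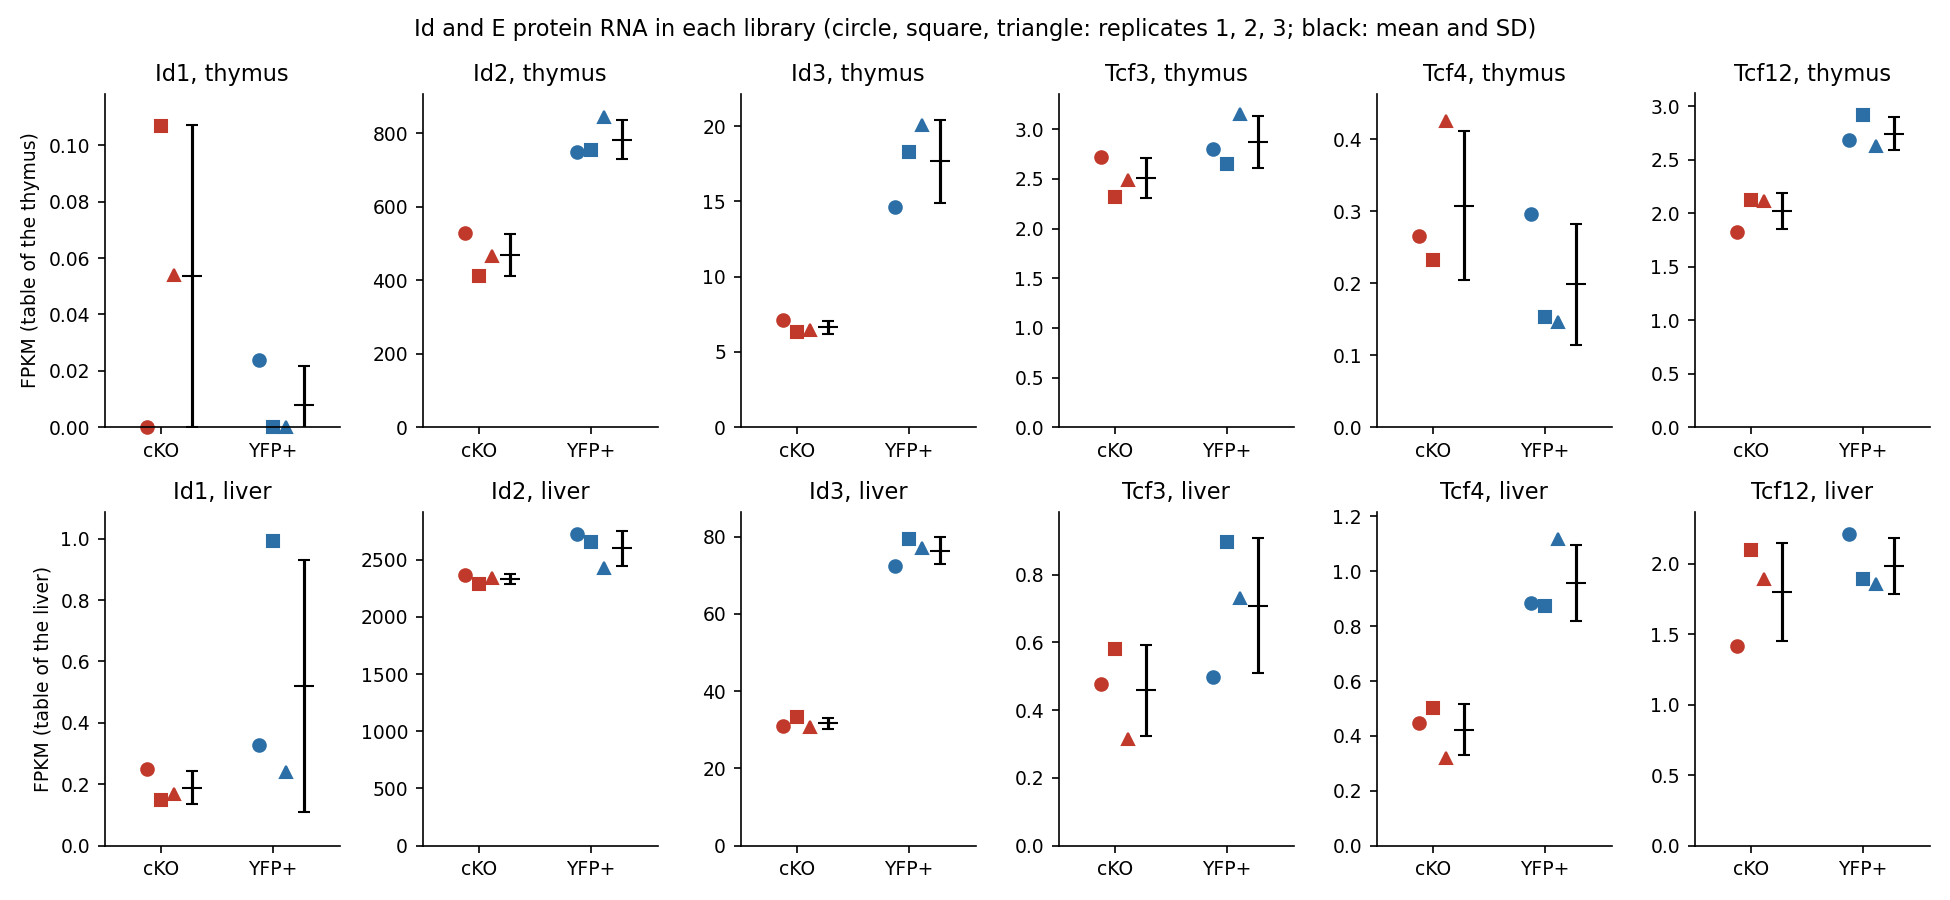
FPKM of the 6 genes in each library, cKO left and YFP+ right in each tissue; points are libraries and black bars are the mean and SD of 3, ending at 0. Id3 separates the groups in both tissues, Id2 in the thymus by more than in the liver, and Id1 and Tcf4 stay low in the thymus.

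In the liver Id3 had 31.1, 33.3 and 30.8 FPKM in the cKO libraries, against 72.6, 79.4 and 77.1 FPKM in the YFP+ libraries. The groups were far apart compared with the spread within either. The means were 31.7 ± 1.41 FPKM in cKO and 76.3 ± 3.48 FPKM in YFP+ cells (SD, n = 3 each). On the log2 scale Id3 fell by 1.24 (SE 0.0791, 95% interval -1.42 to -1.06, limma adjusted p = 7.04e-05), or by 1.13 relative to the median of all liver genes, which was -0.11. In bulk RNA, fewer cells that carry Id3 and less Id3 RNA per cell cannot be told apart. Its rank within a library was 1530 to 1655 in cKO and 813 to 881 in YFP+ cells.

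Id2 in the liver had 2363, 2285 and 2342 FPKM in cKO and 2723, 2650 and 2428 FPKM in YFP+ libraries. Every cKO library was below every YFP+ library, but the third YFP+ library came close to the cKO values. Id2 averaged 2330 ± 40.1 FPKM in cKO and 2600 ± 154 FPKM in YFP+ liver cells (SD, n = 3 each), a difference of -0.16 on the log2 scale (95% interval -0.32 to 0.0046). It did not pass (limma adjusted p = 0.133). Without YFP+ replicate 3 the Id2 difference was -0.21 and passed (adjusted p = 0.0183), with library weights it was -0.17 and passed (adjusted p = 0.0222), and with quantile normalization it was 0.05 (adjusted p = 0.311). Id2 ranked 31 to 34 in liver cKO and 33 to 35 in liver YFP+ libraries, so that the ranks overlapped.

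Of the 3 members tested in the liver, Id3 passed and Id2 and Tcf12 did not. Of all 9591 genes tested in the liver 27.2% passed in either direction, 19.7% as lower and 7.49% as higher in cKO. The groups stood apart for 2 of the 3 members, both lower in cKO, which was so for 29.6% of all genes tested. Id3 passed in each of the 12 alternative settings, with adjusted p of 8.99e-06 to 0.000933.

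Tcf12 had 1.42, 2.096 and 1.89 FPKM in liver cKO and 2.21, 1.89 and 1.85 FPKM in liver YFP+ libraries. These overlapped, and the difference of -0.10 on the log2 scale (95% interval -0.43 to 0.23) did not pass (limma adjusted p = 0.654). Tcf3 had 0.477, 0.581 and 0.316 FPKM in liver cKO and 0.498, 0.896 and 0.731 FPKM in liver YFP+ libraries, also overlapping, and was below the minimum for a test. Id1 likewise fell below it, with 0.249, 0.150 and 0.169 FPKM in cKO and 0.327, 0.991 and 0.241 FPKM in YFP+ liver libraries. A single YFP+ library held the high Id1 value, and the groups overlapped.

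Tcf4 was the one E protein gene whose liver groups stood apart. It had 0.446, 0.503 and 0.320 FPKM in cKO and 0.884, 0.872 and 1.12 FPKM in YFP+ liver libraries, with every cKO value lower. The means were 0.423 ± 0.0936 FPKM in cKO and 0.958 ± 0.139 FPKM in YFP+ cells (SD, n = 3 each), both under the minimum for the main test. An exact two-sided permutation test gave p = 0.1, the smallest that 3 against 3 libraries allow. With no minimum level, Tcf4 had a difference of -0.46 on the log2 scale and passed (limma adjusted p = 0.0352), as did 11.4% of all genes then tested. Tcf4 is also expressed by plasmacytoid dendritic and B cells, which in the mouse carry CD45R and lack TCRb, so that the sort gate should leave them out. The 10 plasmacytoid dendritic cell markers summed to 19.2 to 20.0 FPKM in cKO and 77.4 to 86.8 FPKM in YFP+ libraries. In YFP+ libraries most of that sum was Ly6d, at 1.91 ± 0.618 FPKM in cKO and 61.8 ± 2.41 FPKM in YFP+ cells. Siglech, a defining marker of these cells, went the other way, with 6.42 ± 0.112 FPKM in cKO and 2.83 ± 0.370 FPKM in YFP+ cells. The 10 B cell markers summed to 11.5 to 14.6 FPKM in cKO and 17.8 to 20.0 FPKM in YFP+ libraries, and their members went opposite ways. Cd79a was at 0.354 ± 0.153 FPKM in cKO and 2.63 ± 0.360 FPKM in YFP+ cells, while Fcer2a was at 9.19 ± 0.499 FPKM in cKO and 5.55 ± 0.861 FPKM in YFP+ cells, and both passed (limma adjusted p = 0.000558 for Cd79a and 0.00808 for Fcer2a). Pax5 was at 0 in all cKO libraries and at most 0.092 FPKM in YFP+ libraries. The part of these cells in the Tcf4 values was not tested.

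Markers of other cell types also moved with the liver groups. Double-positive thymocytes share E protein targets and carry the CD4 and CD8 that the sort gate excluded. Of 10 markers of these cells, 6 were tested in the liver and all 6 were lower in cKO, beside 19.7% of all liver genes tested. Dntt, Cd8b1 and Aqp11, with cKO means of 0.546, 0.844 and 0.904 FPKM, reached the minimum for a test only through the YFP+ libraries. The list of 10 summed to 24.1 to 25.5 FPKM in cKO and 88.2 to 100.1 FPKM in YFP+ libraries. Red cell transcripts summed to 9.83 to 14.97 FPKM in cKO and 641 to 742 FPKM in YFP+ libraries, and the 10 macrophage markers to 30.2 to 36.0 FPKM in cKO and 68.8 to 94.2 FPKM in YFP+ libraries. Most of the macrophage gap was Lyz2, at 12.2 ± 2.59 FPKM in cKO and 46.7 ± 8.63 FPKM in YFP+ cells. C1qa and C1qb were lower in cKO as well, while Cd68, Fcgr3 and Cd14 had lower means that did not pass. Clec4f, near 0 in both groups, had the higher mean in cKO. In the thymus the double-positive list summed to 6.44 to 8.25 FPKM in cKO and 12.7 to 18.0 FPKM in YFP+ libraries. Most of that thymus sum was Cd1d1, at 6.03 ± 0.818 FPKM in cKO and 10.97 ± 1.67 FPKM in YFP+ cells. Cd4, Cd8a, Cd8b1 and Aqp11 also had lower means in thymus cKO. Rag1, Rag2, Ptcra, Dntt and Arpp21 had higher means in thymus cKO, each under 1 FPKM in both groups. The thymus B cell list summed to 1.68 to 2.21 FPKM in cKO and 1.86 to 2.38 FPKM in YFP+ libraries. The thymus plasmacytoid dendritic cell list summed to 6.24 to 7.94 FPKM in cKO and 11.7 to 14.0 FPKM in YFP+ libraries. Most of that plasmacytoid dendritic cell sum was Pacsin1 and Irf8, which, like Ccr9, had lower means in thymus cKO. Siglech, Spib, Klk1, Ly6d, Cox6a2 and Cd209d had higher means in thymus cKO, each under 1 FPKM in both groups. Spib and Klk1 were at 0 in YFP+. Runx2 had a higher mean in thymus cKO as well and did not pass. Red cell transcripts in the thymus were 0.179 to 108 FPKM in cKO, highest in replicate 1, and 0.152 to 0.851 FPKM in YFP+ libraries. Without that cKO library Id2 fell by 0.83 (limma adjusted p = 0.000505) and Id3 by 1.32 (limma adjusted p = 0.000373) in the thymus. Endothelial cells are known to express Id1 and Id3. The 10 endothelial markers summed to 1.40 to 2.24 FPKM in liver cKO and 3.40 to 4.09 FPKM in liver YFP+ libraries, with Cdh5 and Tek at 0 in both, and to 1.28 to 1.45 FPKM in thymus cKO and 2.24 to 2.72 FPKM in thymus YFP+ libraries. Most of each sum was Pecam1, at 1.25 ± 0.366 FPKM in liver cKO and 3.22 ± 0.571 FPKM in liver YFP+ cells. Pecam1 was at 0.777 ± 0.185 FPKM in thymus cKO and 1.445 ± 0.145 FPKM in thymus YFP+ cells. The other endothelial markers were under 1 FPKM and went both ways. Stab2 was lower and Kdr and Emcn were higher in cKO in both tissues. NK cells express Id2, and their 6 markers summed to 162 to 204 FPKM in thymus cKO and 166 to 167 FPKM in thymus YFP+ libraries, and to 403 to 419 FPKM in liver cKO and 376 to 485 FPKM in liver YFP+ libraries. These sums hide opposite changes. In the thymus Klre1 rose to 114 ± 7.64 FPKM in cKO, against 49.7 ± 2.02 FPKM in YFP+ cells, and Tyrobp to 11.7 ± 5.77 FPKM in cKO, against 4.99 ± 0.379 FPKM in YFP+ cells, while Gzma fell (limma adjusted p = 0.000106 for Klre1, 0.0383 for Tyrobp and 0.0157 for Gzma). In the liver Klre1 and Ncr1 rose and Gzma fell. Gamma-delta T cells express Id3, and the 3 of their markers in the tables summed to 8.19 to 8.44 FPKM in thymus cKO and 15.002 to 23.1 FPKM in thymus YFP+ libraries, and to 21.8 to 24.0 FPKM in liver cKO and 12.7 to 15.8 FPKM in liver YFP+ libraries. Of these 3, Blk alone passed in the thymus, at 2.32 ± 0.697 FPKM in cKO and 12.01 ± 2.96 FPKM in YFP+ cells. In the liver Blk fell to 6.20 ± 0.883 FPKM in cKO, against 11.4 ± 0.831 FPKM in YFP+ cells, while Sox13 and Cd163l1 rose. The part of these cells in the Id3 and Id2 differences was not tested.

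**Figure D2:**
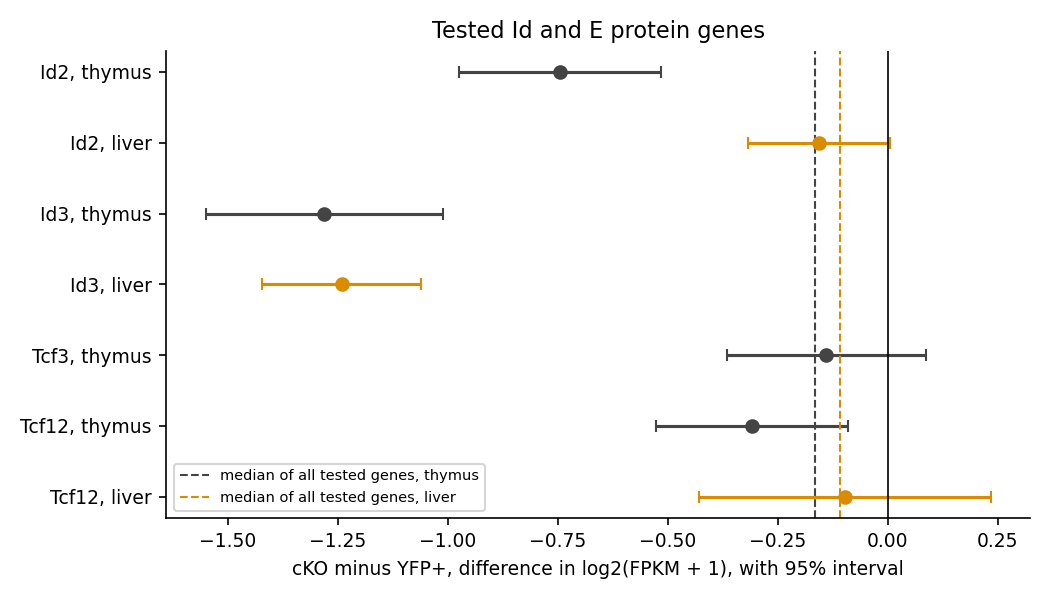
Difference between cKO and YFP+ on the log2(FPKM + 1) scale with its 95% interval, for members tested in each tissue, with the median of all genes tested in each tissue as a dashed line. Id3 lies near -1.28 in the thymus and -1.24 in the liver, and Id2 lies at -0.74 and -0.16.

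Whether a difference between cKO and YFP+ cells was itself different between tissues was tested on all 12 libraries, for the 3 members tested in both tables. For Id2 the liver difference minus the thymus difference was 0.59 on the log2 scale (SE 0.123, 95% interval 0.32 to 0.85, limma adjusted p = 0.00883), and it passed in each of 18 alternative settings. Of all 8372 genes in that test 13.7% passed, and 8.37% passed with a positive value as Id2 did. For Id3 the same quantity was 0.04 (95% interval -0.28 to 0.36, adjusted p = 0.892), and for Tcf12 it was 0.21 (95% interval -0.14 to 0.56, adjusted p = 0.418). The Id3 and Tcf12 intervals leave room for tissue differences of up to about their bounds. With no minimum level Tcf4 could be tested as well, with -0.59 (adjusted p = 0.0198), where 6.21% of all genes passed. In the thymus, however, Tcf4 averaged only 0.308 FPKM in cKO and 0.198 FPKM in YFP+ cells. From such a level, a fall as large as that in the liver could not appear on the log2(FPKM + 1) scale. No difference between tissues is therefore read from the Tcf4 value.

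Because FPKM are per transcript length, the levels of the members can be set against each other within a library. Id transcripts outnumbered E protein transcripts in every library. In the thymus the 3 Id genes summed to 474 ± 58.2 FPKM in cKO and 799 ± 55.0 FPKM in YFP+ cells, a log2 difference of -0.76, while the 3 E protein genes summed to 4.84 ± 0.177 FPKM in cKO and 5.81 ± 0.110 FPKM in YFP+ cells, a log2 difference of -0.26 (SD, n = 3 each). The ratio of summed Id to summed E protein FPKM was 98.02 ± 11.5 in thymus cKO (89.4 to 111) and 138 ± 7.05 in thymus YFP+ libraries (132 to 146). These thymus ratios did not overlap. Nor did the thymus E protein sums, at 4.68 to 5.03 FPKM in cKO and 5.71 to 5.93 FPKM in YFP+ libraries. Of all thymus genes tested, 37.6% were lower in cKO without overlap, and their median difference was itself -0.16. In the liver the Id sum was 2362 ± 38.8 FPKM in cKO and 2677 ± 152 FPKM in YFP+ cells, a log2 difference of -0.18, and the E protein sum was 2.68 ± 0.442 FPKM in cKO and 3.65 ± 0.0542 FPKM in YFP+ cells. The liver E protein sums did not overlap, at 2.34 to 3.18 FPKM in cKO and 3.595 to 3.703 FPKM in YFP+ libraries. With single libraries left out, their log2 difference was -0.59 to -0.37. Of all liver genes tested, 29.6% were lower in cKO without overlap. Tcf3 and Tcf4, which hold part of the liver E protein sum, were below the minimum for a test there. The liver ratio was 898 ± 152 in cKO (729 to 1024) and 734 ± 51.8 in YFP+ libraries (677 to 778), and these overlapped. RNA ratios give neither protein levels nor dimer levels.

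Id2 made up 97.6 to 98.7% of the summed Id FPKM in the thymus libraries, so the Id sum follows Id2 and hides Id3. The ratio of Id2 to Id3 showed the shift between the inhibitors. It was 70.5 ± 4.71 in thymus cKO (65.2 to 74.4) and 44.8 ± 5.48 in thymus YFP+ libraries (41.3 to 51.1). In the liver it was 73.6 ± 4.35 in cKO (68.6 to 76.1) and 34.1 ± 3.08 in YFP+ libraries (31.5 to 37.5). In both tissues the groups were apart, with Id2 outweighing Id3 by more in cKO cells, and a scaling of whole libraries does not alter this ratio.

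The share of each gene in the E protein sum overlapped between the groups in both tissues, except for Tcf4 in the liver. In the thymus Tcf3 held 51.9 ± 4.03% of the E protein sum in cKO and 49.3 ± 3.56% in YFP+ cells, and Tcf12 held 41.8 ± 3.75% in cKO and 47.2 ± 3.44% in YFP+ cells. The thymus Tcf4 share was 6.32 ± 1.88% in cKO and 3.42 ± 1.48% in YFP+ cells. In the liver Tcf12 led, with 67.1 ± 7.22% in cKO and 54.4 ± 6.23% in YFP+ cells (SD, n = 3 each), and the groups overlapped. The Tcf4 share in the liver was 15.9 ± 3.20% in cKO (12.7 to 19.1) and 26.2 ± 3.47% in YFP+ libraries (23.9 to 30.2), which did not overlap.

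**Figure D3:**
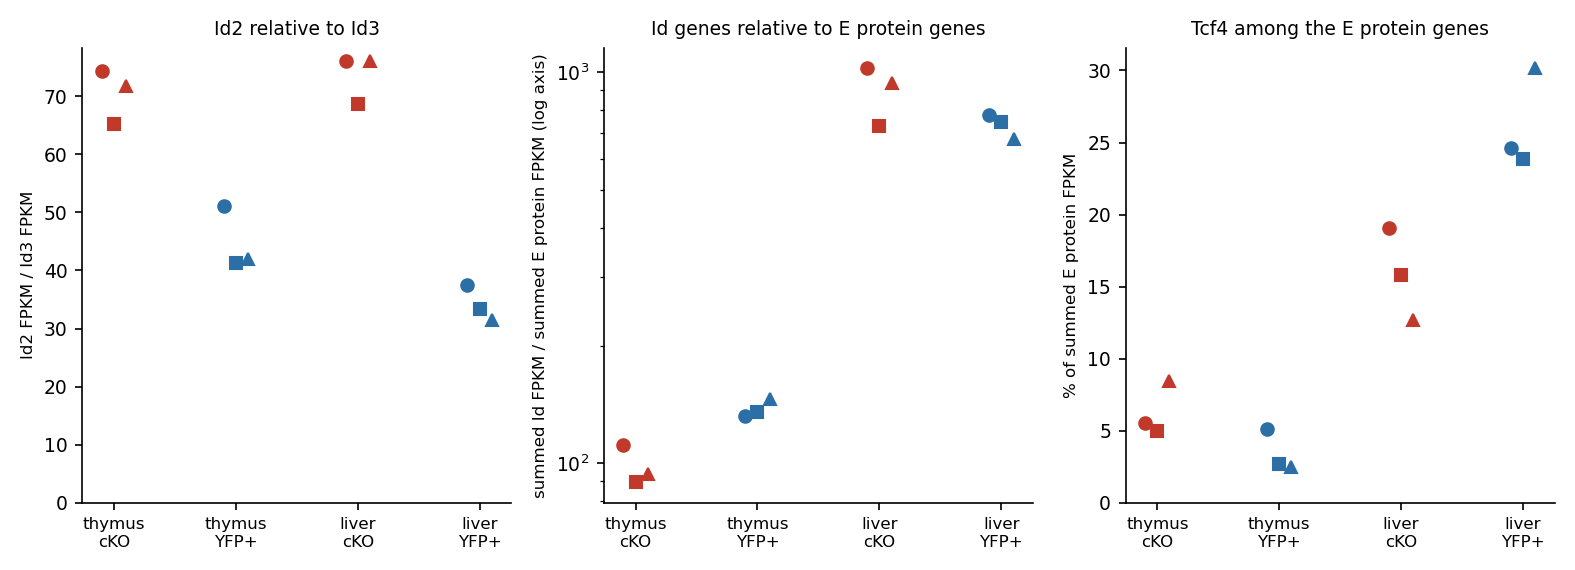
Ratio of Id2 to Id3 FPKM, ratio of summed Id to summed E protein FPKM (log axis) and share of Tcf4 in the E protein sum (percent), cKO left and YFP+ right in each tissue; each point is a library. The Id2 to Id3 ratio is higher in every cKO library of both tissues, and the Id to E protein ratio separates the groups in the thymus, where cKO is lower, and overlaps in the liver.

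Genes tied to E protein activity in T cells were described as a list of 27. Whether E proteins act on these genes in the sorted cells was not tested. In the liver 21 were tested, of which 16 were lower in cKO, none was higher and 5 did not pass, where 19.7% of all liver genes tested were lower and 7.49% higher. Their median difference was -0.86 on the log2 scale, against -0.11 for all liver genes. Dntt, the terminal transferase that adds bases to receptor joints, was at 0.546 ± 0.199 FPKM in cKO and 16.1 ± 0.395 FPKM in YFP+ liver cells (limma adjusted p = 1.98e-06). Ccr7, a homing receptor of naive T cells, was at 1.47 ± 0.678 FPKM in cKO and 12.8 ± 1.51 FPKM in YFP+ cells. Hes1, a target of Notch, was at 0.322 ± 0.365 FPKM in cKO and 5.01 ± 0.617 FPKM in YFP+ cells. Dntt and Hes1 reached the minimum for a test only through the YFP+ libraries. Of the 27, 5 are also on the list of double-positive thymocyte markers, Dntt among them, and without those 5 the liver count was 13 lower of 18 tested. The count of lower genes was 15 with median-ratio scaling and 14 with quantile normalization, which also gave 1 higher.

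In the thymus 15 genes of that list were tested, of which 8 were lower in cKO, 1 was higher and 6 did not pass, where 13.1% of all thymus genes tested were lower and 2.64% higher. The median was -0.44 against -0.16 for all thymus genes. Lef1, a Wnt pathway factor, was at 5.95 ± 0.935 FPKM in cKO and 23.6 ± 2.04 FPKM in YFP+ thymus cells (limma adjusted p = 0.000106). The costimulatory receptor gene Icos was at 8.72 ± 1.40 FPKM in cKO and 29.0 ± 3.83 FPKM in YFP+ cells. Slamf6, a receptor used in NKT cell selection, was at 0.0247 ± 0.0158 FPKM in cKO and 2.39 ± 1.17 FPKM in YFP+ cells. Slamf6 reached the minimum for a test only through the YFP+ libraries, and missed it with 1 library left out. Of the 15 genes tested in both tissues, 8 were lower in the thymus, 10 were lower in the liver and 6 were lower in both, Icos, Lef1 and Slamf6 among them. The same cells gave the list and the members, so that a shared direction does not show which gene acts on which.

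**Figure D4:**
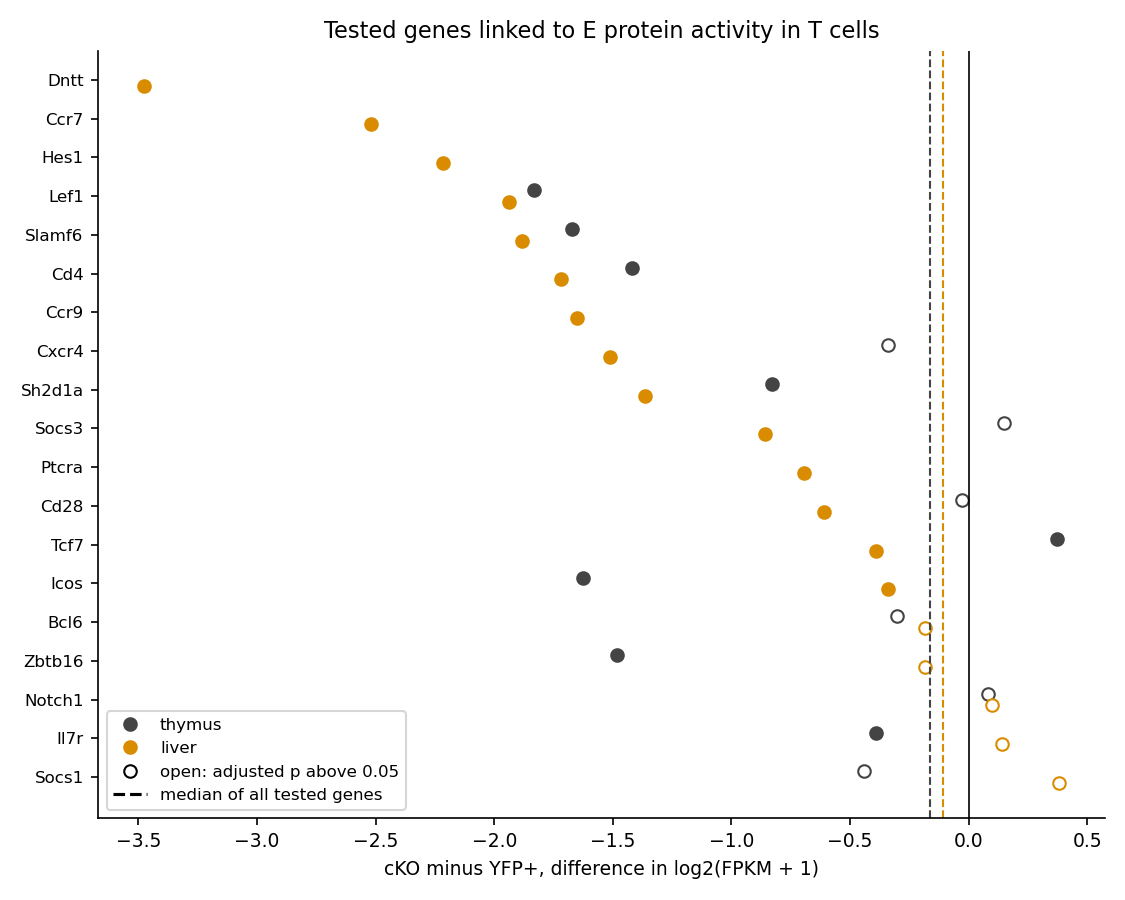
Difference between cKO and YFP+ on the log2(FPKM + 1) scale for 19 of the tested genes of the list tied to E protein activity, dark for the thymus and orange for the liver; filled points passed at an adjusted p of 0.05, and dashed lines are the medians of all tested genes. In the liver 14 of the 19 genes plotted lie below 0 and passed, and in the thymus 7 of 14, with Tcf7 above 0 in the thymus.

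Tcf7, the gene of TCF-1, a Wnt pathway factor, differed between tissues and is named after its values were seen. It was at 87.5 ± 3.26 FPKM in cKO and 67.3 ± 2.43 FPKM in YFP+ thymus cells, against 93.7 ± 2.07 FPKM in cKO and 123 ± 2.48 FPKM in YFP+ liver cells. Its log2 difference was 0.37 in the thymus and -0.39 in the liver. Liver minus thymus came to -0.76 (limma adjusted p = 0.000310).

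Partners and cofactors of helix-loop-helix proteins numbered 22, of which 8 were tested in each tissue. In the thymus 2 were lower in cKO and none was higher, a count of few genes beside 13.1% lower and 2.64% higher over all genes, with a median of -0.20 against -0.16 for all genes; with median-ratio scaling 1 was lower and 1 was higher. Lmo4, a LIM adaptor that joins such complexes, was at 3.74 ± 0.617 FPKM in cKO and 13.7 ± 2.74 FPKM in YFP+ thymus cells (limma adjusted p = 0.000471). Ldb1, the LIM-binding scaffold, was at 25.1 ± 1.18 FPKM in cKO and 31.0 ± 1.52 FPKM in YFP+ cells, and its adjusted p of 0.0364 was 0.0321 to 0.107 with single libraries left out, keeping the call only without cKO replicate 1. In the liver 3 were lower and none was higher, beside 19.7% lower and 7.49% higher over all genes, with a median of 0.11 against -0.11; with median-ratio scaling 3 were lower and 2 were higher. The lower genes were Hes1, the helix-loop-helix repressor Bhlhe40, at 10.3 ± 0.971 FPKM in cKO and 25.5 ± 2.51 FPKM in YFP+ cells, and Lmo4, at 5.01 ± 1.43 FPKM in cKO and 11.1 ± 2.99 FPKM in YFP+ cells (limma adjusted p = 0.0122). Bhlhe40 in the thymus was at 11.1 ± 1.998 FPKM in cKO and 10.7 ± 2.58 FPKM in YFP+ cells and did not pass there.

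A list of 27 signals and factors upstream of Id genes was also described. In the thymus 23 were tested, of which 8 were lower, 1 was higher and 14 did not pass, with a median of -0.19, beside 13.1% lower and 2.64% higher over all genes. Without single libraries the lower count was 4 to 10, with 4 without YFP+ replicate 3, 5 without cKO replicate 2 or YFP+ replicate 1, and 10 without cKO replicate 1, and the higher count was 3 without cKO replicate 1 and 0 without any other library. With median-ratio scaling 5 were lower and 2 were higher. Gfi1, a repressor that in mice restrains Id genes, was at 0.408 ± 0.184 FPKM in cKO and 2.14 ± 0.488 FPKM in YFP+ cells. Gfi1 reached the minimum for a test only through the YFP+ libraries, and missed it with 1 library left out. Egr2, a T cell receptor induced factor needed for NKT cells, was at 0.9997 ± 0.145 FPKM in cKO and 2.72 ± 0.554 FPKM in YFP+ cells (limma adjusted p = 0.00539). Egr1 was at 4.01 ± 1.06 FPKM in cKO and 4.38 ± 0.479 FPKM in YFP+ cells and did not pass. Stat5b, which carries cytokine signals, was at 6.18 ± 0.0554 FPKM in cKO and 9.62 ± 0.897 FPKM in YFP+ cells (limma adjusted p = 0.00681). Nfil3, a factor that acts ahead of Id2 in innate lymphocytes, was at 8.11 ± 2.72 FPKM in cKO and 4.01 ± 0.476 FPKM in YFP+ cells. Its adjusted p of 0.0382 became 0.0832 to 0.134 without any single library other than cKO replicate 1.

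In the liver 21 of the upstream genes were tested, of which 3 were lower, 2 were higher and 16 did not pass, with a median of -0.06. These shares were near those over all liver genes, 19.7% lower and 7.49% higher, and nothing about the list is read from its count. Without cKO replicate 1, cKO replicate 2, YFP+ replicate 2 or YFP+ replicate 3 the higher count was 1. Nr4a1, an immediate target of receptor signals, was at 3.33 ± 1.047 FPKM in cKO and 15.6 ± 1.31 FPKM in YFP+ liver cells (limma adjusted p = 0.000317). In the thymus Nr4a1 had the higher mean in cKO, at 6.05 ± 4.06 FPKM, against 1.54 ± 0.247 FPKM in YFP+ cells. The thymus difference did not pass (limma adjusted p = 0.101). Stat4, which acts after interleukin 12, was at 17.5 ± 0.409 FPKM in cKO and 31.1 ± 2.31 FPKM in YFP+ cells. Nfil3 was at 1.70 ± 0.239 FPKM in cKO and 2.77 ± 0.455 FPKM in YFP+ liver cells, and its adjusted p of 0.0407 became 0.0561 to 0.125 without any single library. The Nfil3 difference between tissues was -1.30 on the log2 scale (limma adjusted p = 0.00917). Il2rb, a receptor chain for interleukin 15, was at 498 ± 18.7 FPKM in cKO and 375 ± 33.8 FPKM in YFP+ liver cells, and at 266 ± 13.4 FPKM in cKO and 365 ± 28.5 FPKM in YFP+ thymus cells. Its difference between tissues was 0.86 on the log2 scale (limma adjusted p = 0.000733), positive as it was for Id2.

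Genes tied to Id2 in effector and innate lymphocytes numbered 22. In the thymus 17 were tested, of which 4 were higher, 3 were lower and 10 did not pass, beside 2.64% higher and 13.1% lower over all genes. Without single libraries 3 to 6 were higher and 1 to 6 lower, both most without cKO replicate 1, and the lower count was fewest without YFP+ replicate 3. S1pr5, a receptor that lets NK cells leave tissue, was at 5.12 ± 1.96 FPKM in cKO and 0.776 ± 0.166 FPKM in YFP+ cells (limma adjusted p = 0.00332). Ifng was at 58.7 ± 15.9 FPKM in cKO and 18.2 ± 6.44 FPKM in YFP+ cells. Gzma (granzyme A) was at 60.0 ± 17.0 FPKM in cKO and 109.6 ± 1.73 FPKM in YFP+ cells, and its adjusted p of 0.0157 became 0.0503 to 0.0685 without any 1 of the 3 YFP+ libraries. In the liver 18 were tested, of which 5 were higher, 5 were lower and 8 did not pass, beside 7.49% higher and 19.7% lower over all genes. The lower count was 2 to 4 with single libraries left out, with 2 without cKO replicate 1 and 3 without cKO replicate 3 or YFP+ replicate 2, and median-ratio scaling gave 6 higher and 1 lower. Cx3cr1 was at 8.95 ± 0.248 FPKM in cKO and 3.92 ± 0.140 FPKM in YFP+ liver cells. Bcl2, a survival factor, was at 34.6 ± 1.64 FPKM in cKO and 18.4 ± 0.794 FPKM in YFP+ cells, and Gzmb at 640 ± 22.2 FPKM in cKO and 411 ± 24.6 FPKM in YFP+ cells (limma adjusted p = 0.000764). Ifng in the liver was at 32.6 ± 1.47 FPKM in cKO and 57.9 ± 1.57 FPKM in YFP+ cells, opposite to the thymus, and the difference between tissues was -2.47 on the log2 scale (limma adjusted p = 0.000610).

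The genes most like each member were taken by Pearson r over the 12 libraries, after the mean of each table was subtracted, among 8372 genes. The libraries share their groups, so that r also reflects group means, and no p is given. Closest to Id3 were Ikzf2, the gene of Helios (r = 0.985), Rgs10 (0.982) and Itm2a (0.978). Ikzf2 was at 0.506 ± 0.0937 FPKM in cKO and 3.51 ± 0.101 FPKM in YFP+ thymus cells, and at 1.27 ± 0.203 FPKM in cKO and 4.66 ± 0.0597 FPKM in YFP+ liver cells. Closest to Id2 were Bcl2a1a (0.986), a survival gene with near-identical copies that share its reads, Lpar6 (0.985) and Cd9 (0.984). Lpar6 was at 27.7 ± 5.55 FPKM in cKO and 61.0 ± 4.88 FPKM in YFP+ thymus cells, and at 114 ± 5.60 FPKM in cKO and 124 ± 1.79 FPKM in YFP+ liver cells. Closest to Tcf12 were Ctps2 (0.940), Endod1 (0.933) and Rpusd4 (0.932).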

How the data were processed

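NKT cells were sorted from thymus and liver and measured in 12 libraries. Per the labels' protocols, a SMARTer kit for low input made the cDNA and a TruSeq or a ThruPLEX kit the libraries. The authors deposited FPKM, 1 table for each tissue. Per the submitters' processing notes they used TopHat2 (version 2.8.0 as given there) and Cufflinks 2.1.1 on mm9. Whether strand was used in counting is not given in those sources, isoforms were not resolved, and FPKM carry no depth: steps among low values put the denominators of libraries at 0.923 to 1.13 of their tissue's first cKO library, but depth itself is unknown. No interval for counting error is therefore given.

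Groups follow the titles. Values as deposited were tested as log2(FPKM + 1) with limma 3.58.1 (trend, R 4.3.3) over all genes averaging 1 FPKM or more in the 6 libraries of a tissue, or in each table for the liver minus thymus difference, with Benjamini-Hochberg adjustment at 0.05. The pseudocount understates changes of low genes. Tested genes with a mean under 1 FPKM in 1 group reached the minimum only through the other group. Among them were Slamf6, Gfi1, Egr2 and S1pr5 in the thymus and Dntt, Hes1, Cd79a and Ncr1 in the liver. The method was checked on simulated data. Alternatives were a pseudocount of 0.1, no minimum, median-ratio scaling, quantile normalization, a replicate block, library weights and leaving out each library. Deviations of same-numbered libraries from their group means correlated at r of -0.0634 to 0.0659. With 3 libraries per group this cannot decide whether the numbers pair samples. The main test treats the libraries as unpaired. Members and gene lists were chosen with earlier results of these data known. Named from a list were up to 4 genes per tissue by size of difference among those that passed with groups apart, and the 3 genes most like a member by Pearson r; Egr1, Tcf7 and Zbtb16, the marker genes, and genes named in a second tissue were chosen after their values were seen. Some genes of the lists count in the totals but are not reported here by name. Promoters are RefSeq GRCm38.p6, not the mm9 of the files; 4 of the 6 members matched. Figures used matplotlib 3.10.9.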

Additional observations from a re-analysis of the deposited data

Results flagged for a closer look

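Id2 differed between the tissues by a test of the difference itself. The liver difference between cKO and YFP+ cells minus the thymus difference was 0.588 on the log2(FPKM + 1) scale (limma adjusted p = 0.00883). Both tables were normalized separately and come from different read layouts, and the part of that in the Id2 difference was not tested. If the liver descriptions hold in place of the titles, the liver difference of -0.16 turns to its mirror and the gap to the thymus widens.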

How the results depend on the processing

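The 1429 thymus genes that passed (240 higher, 1189 lower in cKO) became 801 with no minimum, 786 with median-ratio scaling (365 higher, 421 lower), 826 with quantile normalization (397 higher, 429 lower), 787 with the replicate block and 2798 with library weights. Without single libraries they were 472 to 2408, most without cKO replicate 1 and fewest without YFP+ replicate 3. The 2607 liver genes (718 higher, 1889 lower) became 3940 with library weights, 1539 to 2640 without single libraries, 1002 higher and 1061 lower with median-ratio scaling, and 1222 higher and 924 lower with quantile normalization. The 1149 genes of the tissue difference became 2438 with weights, 772 with the replicate block and 723 to 1375 without single libraries. The member counts were 2 in the thymus and 1 each in the liver and the tissue difference. The thymus count was 3 with weights (Tcf12 added). The liver count was 2 with no minimum (Tcf4 added), 2 with weights (Id2 added) and 1 to 2 without single libraries, and the tissue count 2 with no minimum; the replicate block changed none. Median-ratio scaling gave log2 differences of -0.60 for the thymus Id sum, -0.11 for the thymus E protein sum and -0.069 for the liver Id sum. Differences that did not pass in the main test turned sign: thymus Tcf3 to 0.0131 and liver Id2 to 0.0543 with quantile normalization, liver Tcf12 to 0.0048 without cKO replicate 1 (-0.174 to 0.0048 without single libraries), and the Id3 tissue difference to -0.025 with weights and -0.0532 without thymus YFP+ replicate 3 (-0.0532 to 0.161 without single libraries). The causes were not tested.

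Depth is unknown, and Id1, Tcf4 and liver Tcf3 were too low for the main test. The kit of each library is not given.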
